A study of Mus musculus with 6 samples.

Results

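Macrophages recognise what they engulf through surface receptors, and 9 genes that encode such receptors or other macrophage products were followed in cultured mouse osteoclasts. They were Adgre1 (the F4/80 antigen, called Emr1 in older annotations), Cd14, Cd68, Cd36, Msr1, Marco, Mertk, Cd163 and Lyz2. The genes were chosen by name, as the features whose gene name on the array was 1 of these 9, among 37074 gene names on the array. Together they were covered by 16 probes, and Emr1 did not occur as a gene name of its own.

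The cells were osteoclasts grown from bone marrow cells and treated with RANKL, the cytokine that drives osteoclast formation, for 5 days. One group came from 3 Ano1fl/fl mice, in which both copies of the chloride channel gene Ano1 carry loxP sites but remain in place. The other came from 3 Ctsk-Cre;Ano1fl/fl mice, described in the methods as their littermates, which carry the same floxed alleles and also Cre recombinase driven by the cathepsin K gene. All 6 cultures therefore shared the floxed alleles and RANKL, only 1 group carried Cre, and no culture without floxed alleles was measured. Cathepsin K is made as osteoclasts differentiate, so precursors and other cells of the culture that do not make it would not be targeted. The methods describe marrow cultures from mice aged 6–8 weeks in general, and an age for these 6 mice is not given in the sources used here. RNA of each culture was read in a single dye, Cy3, on 1 Agilent array, so each value is a spot brightness.

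Osteoclasts arise by fusion of cells of the monocyte and macrophage lineage, and their precursors carry macrophage surface proteins, several of which are known to decline as the cells fuse and mature. Scavenger receptors bind modified lipoproteins, bacterial wall components and dying cells, and include the class A receptors Msr1 and Marco and the class B receptor Cd36. Cd68 is a glycoprotein of late endosomes and lysosomes, Cd14 presents lipopolysaccharide to Toll-like receptor 4, and Lyz2 encodes the lysozyme of macrophages and granulocytes.

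Between 33480 and 34951 of the 59305 transcript spots of an array were marked well above background, and none was saturated. Of the probes, 31848 were tested with limma and 16690 of them (52.4%) passed an adjusted p of 0.05, with 21.8% of the tested probes higher in Ctsk-Cre;Ano1fl/fl arrays. The groups did not overlap for 64.0% of the tested probes, and the median log2 difference over all of them was -0.09. None of the 6 arrays had the Ano1 probe well above background, and its processed signals were 3.28, 3.22 and 3.91 in Ano1fl/fl and 3.23, 3.25 and 3.81 in Ctsk-Cre;Ano1fl/fl cells. It gives no check of the genotypes, and each direction below rests on the labels alone. All arrays lay on 1 slide, with Ano1fl/fl replicates 1 and 2 in its first row and the other 4 arrays in its second row. Having 3 arrays per group limits the precision. Separately, an exact permutation test of 3 against 3 cannot give a two-sided p below 0.1.

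The 9 genes differed in how far they moved. Marco rose about 8-fold in Ctsk-Cre;Ano1fl/fl cells, Adgre1 and Msr1 rose by less, and Cd68 rose at 2 of its 3 probes. Cd14, Cd36, Lyz2 and Mertk did not pass the test at any probe, and Cd163 stayed near background on all 6 arrays. Of the 14 tested probes, 7 were called (50%, against 52.4% of all tested probes), so the share called lay near the background. All 7 were higher in Ctsk-Cre;Ano1fl/fl cells (50%, against 21.8%) and 0 were lower. After quantile normalization the groups did not overlap for 11 of the 14 probes (78.6%, against 64.0%). Before it the processed signals of some of these probes overlapped, as given below for Cd36, Cd68, Mertk and the upstream Msr1 probe. The median log2 difference of the 14 probes was 0.29, within a range from -0.27 to 3.01. All 14 were well above background on all 6 arrays, so none entered the test through 1 group alone.

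**Figure D1:**
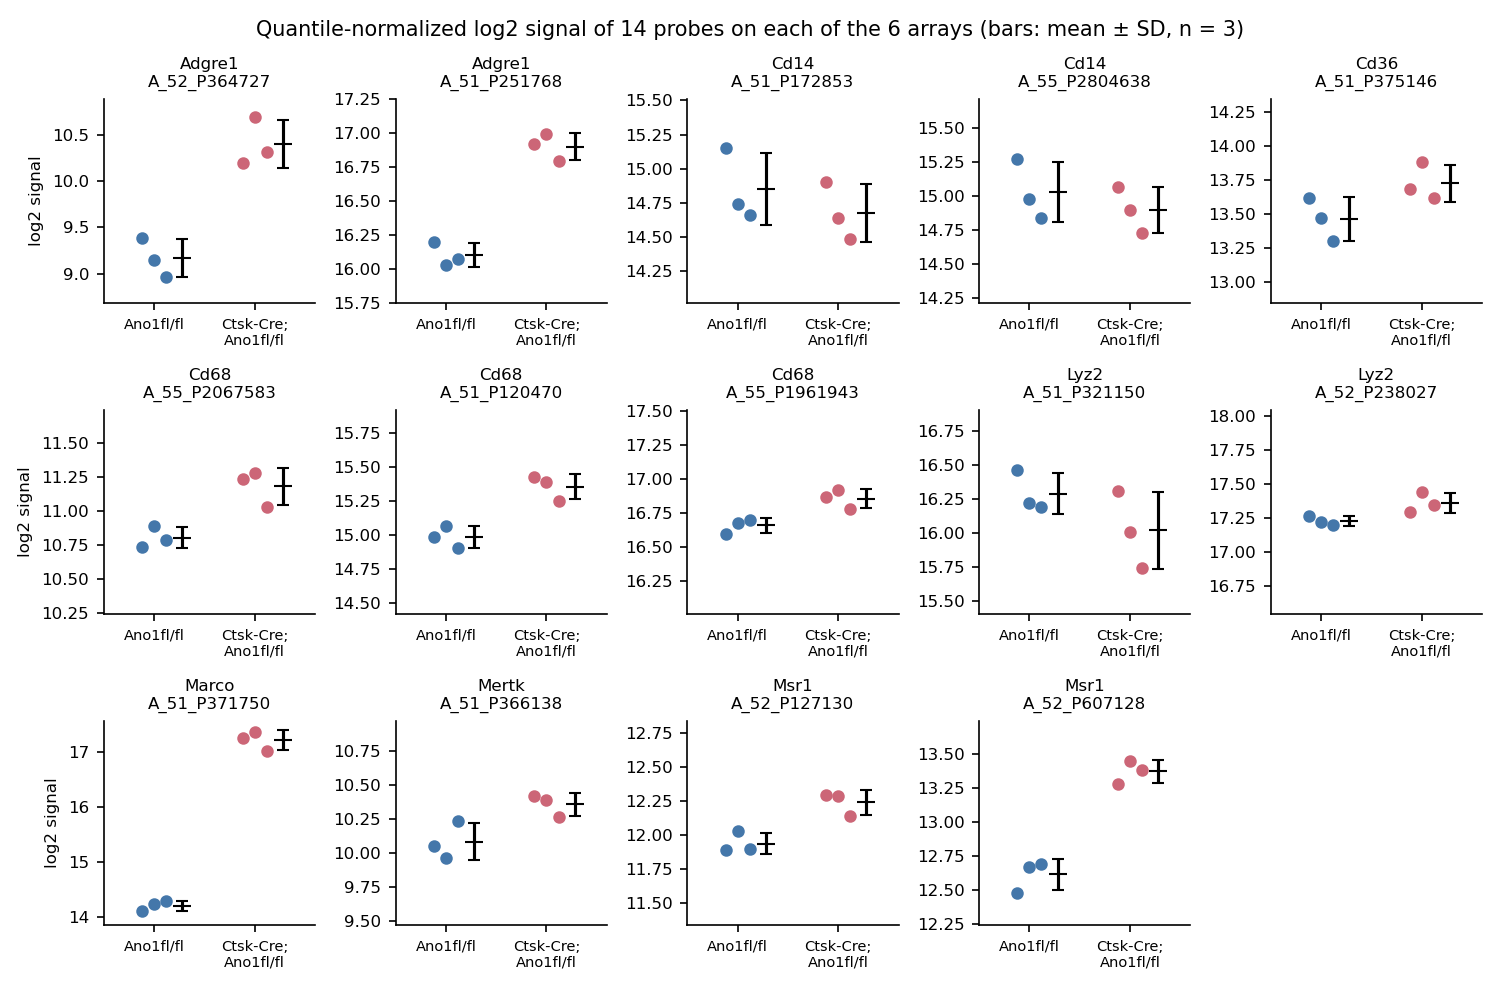
Quantile-normalized log2 signal (y axis, a separate range in each panel) of the 14 tested probes on each array, with Ano1fl/fl cultures in blue and Ctsk-Cre;Ano1fl/fl cultures in red; bars give mean ± SD of 3 arrays. Marco separated the groups by about 3 log2 units, Adgre1 and the downstream Msr1 probe by 0.75 to 1.23, and both Cd14 probes overlapped.

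The probe sequences below are shown because genes with several probes gave unequal differences, and each of these is set below against a probe further downstream in the same gene. Each is 60 bases long and is printed 5′ to 3′ as the array file gives it.
Adgre1 A_52_P364727: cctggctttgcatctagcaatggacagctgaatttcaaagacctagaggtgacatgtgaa
Msr1 A_52_P127130: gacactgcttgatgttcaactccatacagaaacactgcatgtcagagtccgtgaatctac
Cd68 A_51_P120470: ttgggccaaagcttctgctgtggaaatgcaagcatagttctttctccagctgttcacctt
Lyz2 A_51_P321150: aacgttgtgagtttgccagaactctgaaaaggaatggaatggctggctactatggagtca
In mm9, the build of the array file, the Adgre1 probe lies at chr17:57550221-57550280 on the plus strand. The other 3 lie on the minus strand, at chr8:40709296-40709355 for Msr1, chr11:69478314-69478373 for Cd68 and chr10:116719175-116719234 for Lyz2. Every probe is designed against a transcript, and whether it falls in coding sequence or in a UTR was not looked up, since no mm9 annotation was used here.

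Marco, a collagen-like class A scavenger receptor that binds bacteria and particles, had 1 probe (A_51_P371750), which begins at base 1869 of its transcript. Log2 signals of Marco were 14.10, 14.23 and 14.28 in Ano1fl/fl replicates 1, 2 and 3 and 17.26, 17.37 and 17.02 in Ctsk-Cre;Ano1fl/fl replicates 1, 2 and 3. Each Ctsk-Cre;Ano1fl/fl array was more than 2 log2 units above each Ano1fl/fl array. The means were 14.21 ± 0.09 and 17.21 ± 0.18 (SD, n = 3), a difference of 3.01 ± 0.11 (SE), or 8.05-fold (limma adjusted p = 1.45e-05). Before normalization between arrays, the processed signals were 17200, 22300 and 23800 against 155000, 143000 and 125000. A rise of more than 8-fold was seen for 796 tested probes (2.5%). Under 20 alternative settings the Marco difference lay between 2.93 and 3.11 and stayed called. In RNA from a whole culture, a change in the number of cells of a type and a change in RNA per cell cannot be told apart, here or for any gene below.

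Msr1, the class A scavenger receptor that takes up modified lipoproteins, rose at both of its probes but by unequal amounts. The downstream probe (A_52_P607128, from base 3231 of the transcript) read 12.48, 12.67 and 12.69 in Ano1fl/fl and 13.28, 13.45 and 13.38 in Ctsk-Cre;Ano1fl/fl cells on the log2 scale. Its difference was 0.75 ± 0.09 (SE), or 1.69-fold (limma adjusted p = 0.00101). The upstream probe (A_52_P127130, from base 624) read 11.89, 12.03 and 11.90 against 12.30, 12.29 and 12.14, which left the groups apart by about 0.1. Its difference was 0.30 ± 0.09 (SE), or 1.23-fold (limma adjusted p = 0.0256). That call was lost when Ano1fl/fl replicate 1 (limma adjusted p = 0.073), Ano1fl/fl replicate 3 (0.0769), Ctsk-Cre;Ano1fl/fl replicate 1 (0.0718) or Ctsk-Cre;Ano1fl/fl replicate 2 (0.0717) was left out. It was also lost with the replicate number as a block (limma adjusted p = 0.056), with scaling to the 75th percentile (limma adjusted p = 0.097), and in the second row of the slide alone (limma adjusted p = 0.136). Before normalization the processed signals of the upstream probe overlapped, at 3670–4800 and 4020–5080, and those of the downstream probe did not, at 5510–7960 and 9080–10000. By the array file the upstream probe names 2 RefSeq mRNAs and the downstream probe names 1.

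Cd36, the class B receptor for oxidised lipoproteins and fatty acids, was measured by 1 probe. Its log2 signals were 13.62, 13.47 and 13.30 in Ano1fl/fl and 13.68, 13.88 and 13.62 in Ctsk-Cre;Ano1fl/fl cells, so the groups were apart by less than the 2 decimals given here. The difference was 0.26 ± 0.12 (SE), or 1.20-fold (limma adjusted p = 0.0976), and was not called. Before normalization its processed signals overlapped, at 12000–13000 and 11800–13000. Cd163, the scavenger receptor for haptoglobin-haemoglobin complexes and a marker of tissue macrophages, was not well above background at either probe on any of the 6 arrays. Processed signals of its probe A_55_P2289819 were 3.01–3.68, and those of A_51_P231042 were 3.25, 9.44 and 5.76 in Ano1fl/fl and 3.26, 3.32 and 3.36 in Ctsk-Cre;Ano1fl/fl cells. Neither Cd163 probe was tested.

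Adgre1 encodes F4/80, an adhesion G protein-coupled receptor used to identify mouse macrophages. Its downstream probe (A_51_P251768, from base 3135) read 16.20, 16.03 and 16.07 in Ano1fl/fl and 16.92, 16.99 and 16.79 in Ctsk-Cre;Ano1fl/fl cells on the log2 scale. The means were 16.10 ± 0.09 and 16.90 ± 0.10 (SD, n = 3), and the difference of 0.80 ± 0.09 (SE) was 1.74-fold (limma adjusted p = 0.00071). The upstream probe (A_52_P364727, from base 934) read 9.39, 9.15 and 8.97 against 10.20, 10.69 and 10.32. Its difference of 1.23 ± 0.17 (SE) was 2.35-fold (limma adjusted p = 0.00141). Both Adgre1 probes separated the groups without overlap. Across the alternatives the upstream difference lay between 1.09 and 1.43. The downstream one lay between 0.73 and 1.02, a range that includes the mean of both probes as an alternative.

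Cd68 had 3 probes. A_55_P2067583 read 10.74, 10.89 and 10.79 in Ano1fl/fl and 11.24, 11.28 and 11.03 in Ctsk-Cre;Ano1fl/fl cells, a log2 rise of 0.37 ± 0.10 (SE, limma adjusted p = 0.0183). A_51_P120470 read 14.98, 15.06 and 14.90 against 15.42, 15.39 and 15.25, a log2 rise of 0.37 ± 0.09 (SE, limma adjusted p = 0.012). The brightest probe, A_55_P1961943, read 16.60, 16.68 and 16.70 against 16.87, 16.92 and 16.78, and its log2 difference was 0.20 ± 0.08 (SE) and was not called (limma adjusted p = 0.0711). A call was made in 4 of 20 alternatives, of which the mean of the 3 probes (limma adjusted p = 0.0184) takes in the 2 called probes. The others were no filter on dim probes (limma adjusted p = 0.0492), the trend and robust options of limma (0.0105) and the methods' t-test, adjusted over all probes (0.0448). After quantile normalization all 3 Cd68 probes were higher on every Ctsk-Cre;Ano1fl/fl array than on any Ano1fl/fl array, by 1.15-fold to 1.30-fold in the means. Before it the processed signals of each Cd68 probe overlapped between the groups, and those of A_55_P1961943 were 102000, 120000 and 120000 in Ano1fl/fl and 117000, 104000 and 108000 in Ctsk-Cre;Ano1fl/fl cells. The call of A_55_P2067583 was lost without Ano1fl/fl replicate 1 (limma adjusted p = 0.0569), Ano1fl/fl replicate 3 (0.0547), Ctsk-Cre;Ano1fl/fl replicate 1 (0.0544) or Ctsk-Cre;Ano1fl/fl replicate 2 (0.0547). That of A_51_P120470 was lost when arrays were scaled to their 75th percentile (limma adjusted p = 0.0561). In the second row of the slide alone, 1 Ano1fl/fl array against 3, neither was called (limma adjusted p = 0.141 and 0.0756).

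Mertk, the receptor tyrosine kinase through which macrophages engulf apoptotic cells, read 10.05, 9.96 and 10.23 in Ano1fl/fl and 10.42, 10.39 and 10.26 in Ctsk-Cre;Ano1fl/fl cells. The groups did not overlap, but they came within 0.1 of each other. The log2 difference was 0.28 ± 0.10 (SE) and was not called (limma adjusted p = 0.0545). It was called in 5 of 20 alternatives, namely without Ano1fl/fl replicate 3 (limma adjusted p = 0.0356), with normexp background correction (0.0286), with the series matrix values (0.0346), with probes well above background on all 6 arrays (0.0489) and with the trend and robust options of limma (0.0326). Before normalization its processed signals overlapped, at 1010–1420 and 1080–1420.

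Both Cd14 probes overlapped between the groups. Its brightest probe read 15.27, 14.98 and 14.84 in Ano1fl/fl and 15.07, 14.90 and 14.73 in Ctsk-Cre;Ano1fl/fl cells. The other read 15.15, 14.74 and 14.66 against 14.90, 14.64 and 14.48. The log2 differences were -0.13 ± 0.14 (SE, limma adjusted p = 0.48) and -0.18 ± 0.17 (SE, limma adjusted p = 0.403). The SD of each group, 0.17 to 0.26, exceeded the difference between them at both probes.

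The brightest Lyz2 probe, A_52_P238027, read 17.27, 17.22 and 17.20 in Ano1fl/fl and 17.30, 17.44 and 17.35 in Ctsk-Cre;Ano1fl/fl cells. This difference of 0.13 ± 0.08 (SE) was not called (limma adjusted p = 0.182). The upstream Lyz2 probe (A_51_P321150, from base 94) read 16.46, 16.22 and 16.19 against 16.31, 16.01 and 15.74, a difference of -0.27 ± 0.16 (SE, limma adjusted p = 0.201). The values at the 2 probes had opposite signs after quantile normalization, neither of them called. Before it the processed signals of A_52_P238027 were also lower in Ctsk-Cre;Ano1fl/fl cells, at 153000–158000 against 162000–168000. The mean of both normalized probes gave a log2 difference of -0.07 (limma adjusted p = 0.584). The neighbouring gene Lyz1 encodes a closely related lysozyme. Its probe, set against each Lyz2 probe, had at most 19 of 42 aligned bases identical. A comparison of probes cannot show whether a Lyz2 probe binds the Lyz1 transcript, which was not compared, so cross-hybridisation was not tested.

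**Figure D2:**
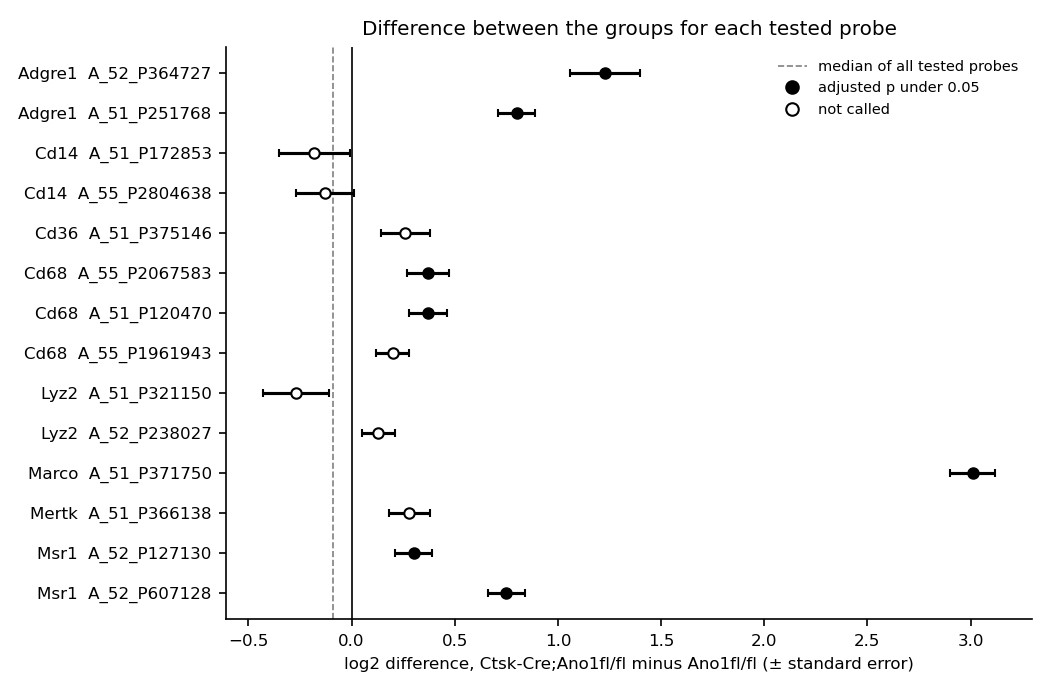
Log2 difference, Ctsk-Cre;Ano1fl/fl minus Ano1fl/fl, with its standard error (x axis) for each tested probe, ordered by gene and position in the transcript; filled points passed a limma adjusted p of 0.05. Marco stands at 3.01, the other 6 called probes lie between 0.30 and 1.23, and 3 probes of Cd14 and Lyz2 lie below 0.

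Probes of the same gene were compared within each array, which removes differences in scale between arrays. For Adgre1 the downstream probe exceeded the upstream one by 6.81–7.10 log2 units in Ano1fl/fl and by 6.30–6.72 in Ctsk-Cre;Ano1fl/fl cells, a change of -0.43. For Msr1 the same quantity was 0.59–0.79 and 0.98–1.25, a change of 0.45. The upstream probe therefore moved more for Adgre1 and the downstream probe moved more for Msr1, and neither pair overlapped between the groups. For Cd68, A_55_P1961943 against either of the others changed by -0.17 without overlap, whereas the other pair changed by 0 and overlapped. Each of the 4 pairs without overlap reached p = 0.1 in a two-sided exact permutation test, the smallest that 3 against 3 can give, and 0.175 after adjustment over the 7 pairs. For Lyz2 the downstream excess was 0.82–1.01 and 0.99–1.61, an overlapping change of 0.40 (exact permutation p = 0.3), and for Cd14 it changed by 0.05 (exact permutation p = 0.3).

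**Figure D3:**
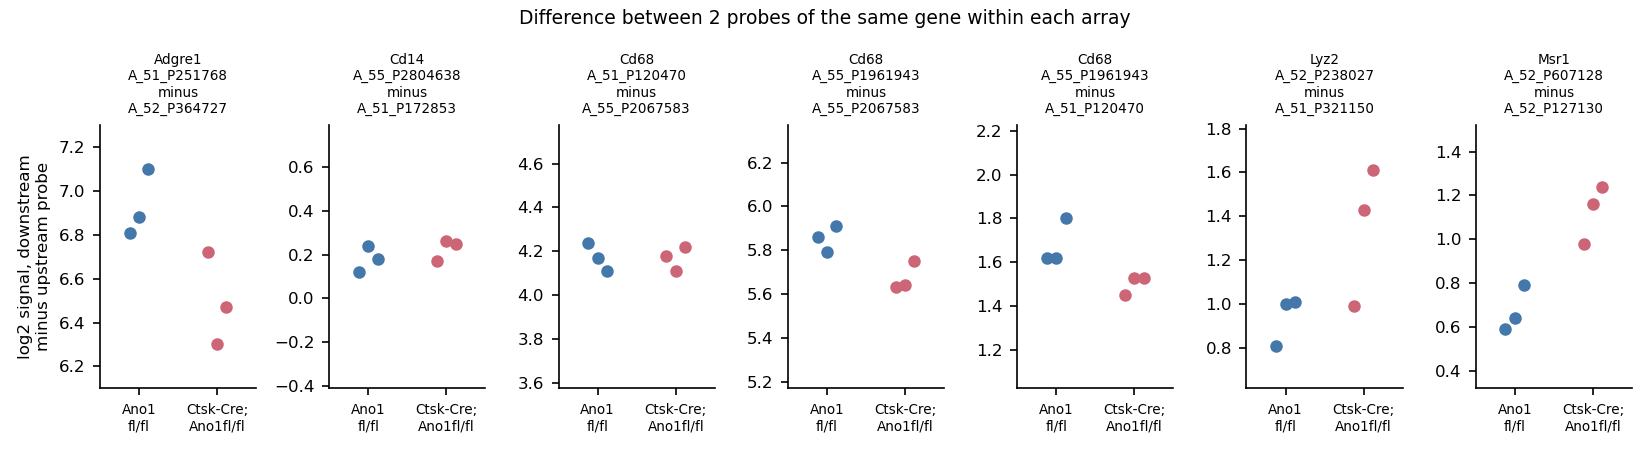
Log2 signal of a downstream probe minus that of an upstream probe of the same gene on each array (y axis, every panel spans 1.2 units), with Ano1fl/fl cultures in blue and Ctsk-Cre;Ano1fl/fl cultures in red. The groups lie apart for Adgre1, Msr1 and both Cd68 pairs that hold A_55_P1961943.

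Other scavenger receptors moved in both directions. Here and for the lists that follow, each gene is represented by its brightest probe, by which 23.0% of all tested genes were called higher and 28.5% lower in Ctsk-Cre;Ano1fl/fl cells, and by which 3 of the 8 tested macrophage genes were called, all higher (Marco, Adgre1 and Msr1). Of 17 further scavenger receptors, 15 were tested, and 7 were called higher and 8 lower, with a median log2 difference of -0.32. Scara3, a class A relative of Msr1 and Marco, did not reach the mark for signal well above background on any of the 3 Ano1fl/fl arrays and was at least 4.6-fold higher in Ctsk-Cre;Ano1fl/fl cells (limma adjusted p = 0.000158). Scara3 thus entered the test through the Ctsk-Cre;Ano1fl/fl arrays alone, and its log2 difference of 2.49 became 0.85 with normexp background correction and 1.28 with the series matrix values, so the 4.6-fold limit holds for the processed signals. Mrc1, the macrophage mannose receptor, read 12.85, 12.76 and 12.96 in Ano1fl/fl and 11.48, 11.51 and 11.51 in Ctsk-Cre;Ano1fl/fl cells, a fall of 2.56-fold (limma adjusted p = 6.67e-05). Stab1, a scavenger receptor of macrophages and sinusoidal endothelium, was 2.37-fold lower (limma adjusted p = 0.00182). Marco and Mrc1, both receptors that macrophages use for uptake, thus moved in opposite directions on the same arrays. Scarb1, the high-density lipoprotein receptor, gave -0.32 at its brightest probe (limma adjusted p = 0.0277) and 0.37 at the other (limma adjusted p = 0.18). The Scarb1 call was lost without Ano1fl/fl replicate 1 (limma adjusted p = 0.0794) or 2 (0.0779), or without Ctsk-Cre;Ano1fl/fl replicate 2 (0.0762) or 3 (0.0805).

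Mertk belongs to the TAM receptors, together with Tyro3 and Axl, and these are bridged to dying cells by the ligands Gas6 and Pros1. The 3 receptors gave different values. Tyro3 read 4.36, 4.64 and 4.55 in Ano1fl/fl and 7.47, 7.19 and 7.36 in Ctsk-Cre;Ano1fl/fl cells, a 7.07-fold rise (limma adjusted p = 1.8e-05). This log2 difference of 2.82 became 1.40 with normexp background correction and 1.80 with the series matrix values, both called. Axl read 14.80, 15.03 and 15.06 against 14.41, 14.18 and 14.05, a 1.68-fold fall (limma adjusted p = 0.00326). Mertk lay between them at 0.28, not called. Of the ligands, Gas6 gave -0.79 ± 0.26 (SE, limma adjusted p = 0.0446), and its adjusted p was 0.0502–0.119 when any array other than Ano1fl/fl replicate 2 was left out. Pros1 gave -0.10 (limma adjusted p = 0.55). Mfge8, which tethers phosphatidylserine on dying cells to integrins, rose 5.53-fold (limma adjusted p = 1.75e-05), and Pld4, a phospholipase family member, fell 1.72-fold (limma adjusted p = 0.00667). In all, 7 of 18 tested engulfment genes were higher and 9 lower, with a median of -0.26.

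Cd14 works with Tlr4 and its partner Ly96 in the recognition of lipopolysaccharide. The brightest probes of Tlr4 (0.09, limma adjusted p = 0.611) and Ly96 (-0.03, limma adjusted p = 0.766) were not called, as for Cd14. Tlr4 had 3 tested probes that ranged from -1.30 to 0.09, so its direction depended on the probe, and Ly96 had 2, at -0.03 and 0.32, the latter called (limma adjusted p = 0.0167). Of the 11 genes of the lipopolysaccharide receptor complex, 2 were higher and 4 lower, with a median of -0.06. Ticam2, an adaptor of Tlr4, was 2.68-fold higher (limma adjusted p = 0.000308). Ly86, the partner of the Tlr4-like receptor Cd180, was 2.57-fold lower (limma adjusted p = 0.00046).

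Cd36 handles lipid, and of 13 macrophage lipid genes 3 were higher and 3 lower, with a median of -0.06. Nr1h3, the oxysterol receptor LXR alpha, was 2.54-fold higher (limma adjusted p = 0.000216), and Apoe, which carries cholesterol out of macrophages, was 2.73-fold lower (limma adjusted p = 0.00161). Pparg, a nuclear receptor known to induce Cd36, gave -0.38 (limma adjusted p = 0.0372), a call lost without Ano1fl/fl replicate 2 (0.114) or 3 (0.101), or without Ctsk-Cre;Ano1fl/fl replicate 1 (0.0868) or 3 (0.104) by the same limma test. Of 9 genes for haem and haemoglobin clearance, the pathway of Cd163, 5 were higher and 1 lower, with a median of 0.44; the count lower was 2 without Ano1fl/fl replicate 1 or Ctsk-Cre;Ano1fl/fl replicate 3. Hmox1, the haem-degrading enzyme, was 1.59-fold higher (limma adjusted p = 0.0029). Hp, which encodes haptoglobin, was 3.42-fold higher (limma adjusted p = 0.000203), and Slc40a1, the iron exporter ferroportin, was 1.66-fold lower (limma adjusted p = 0.00543).

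Relatives of Lyz2, Adgre1 and Cd68 were taken next. Among lysozymes 3 of 9 were tested, Lyz1 gave -0.14 (limma adjusted p = 0.357), and Lyzl4 was 1.61-fold higher (limma adjusted p = 0.0113), with a median of -0.10. Among the E and L families of adhesion G protein-coupled receptors, to which Adgre1 belongs, 2 of 4 tested were higher and 1 lower, with a median of 0.41, and the count higher was 1 without Ano1fl/fl replicate 2 or Ctsk-Cre;Ano1fl/fl replicate 2. Adgrl1 was 1.99-fold higher (limma adjusted p = 0.00253) and Adgrl2 1.39-fold lower (limma adjusted p = 0.0105). Of the 4 genes of the lysosomal LAMP family, to which Cd68 belongs, 0 were higher and 1 was lower, with a median of -0.02. Lamp1 gave 0.02 (limma adjusted p = 0.866), and Lamp3 was 1.26-fold lower (limma adjusted p = 0.00797).

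Of 11 macrophage transcription factors and the growth receptor, 3 were higher and 3 lower, with a median of 0.18. Csf1r, the M-CSF receptor of the whole lineage, read 16.88, 16.79 and 16.81 in Ano1fl/fl and 16.84, 16.87 and 16.67 in Ctsk-Cre;Ano1fl/fl cells and was not called (limma adjusted p = 0.743). Spi1, which encodes PU.1, gave 0.48 (limma adjusted p = 0.0224), a call lost without Ano1fl/fl replicate 1 (0.067) or 3 (0.0685), or without Ctsk-Cre;Ano1fl/fl replicate 1 (0.067) or 2 (0.062) by the same limma test. Spic, a PU.1 relative of red pulp macrophages, was 2.69-fold higher (limma adjusted p = 0.00157). Over all 9 lists, 88 of 98 genes were tested, and 30 were called higher and 30 lower (34.1% each), with a median of -0.01.

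**Figure D4:**
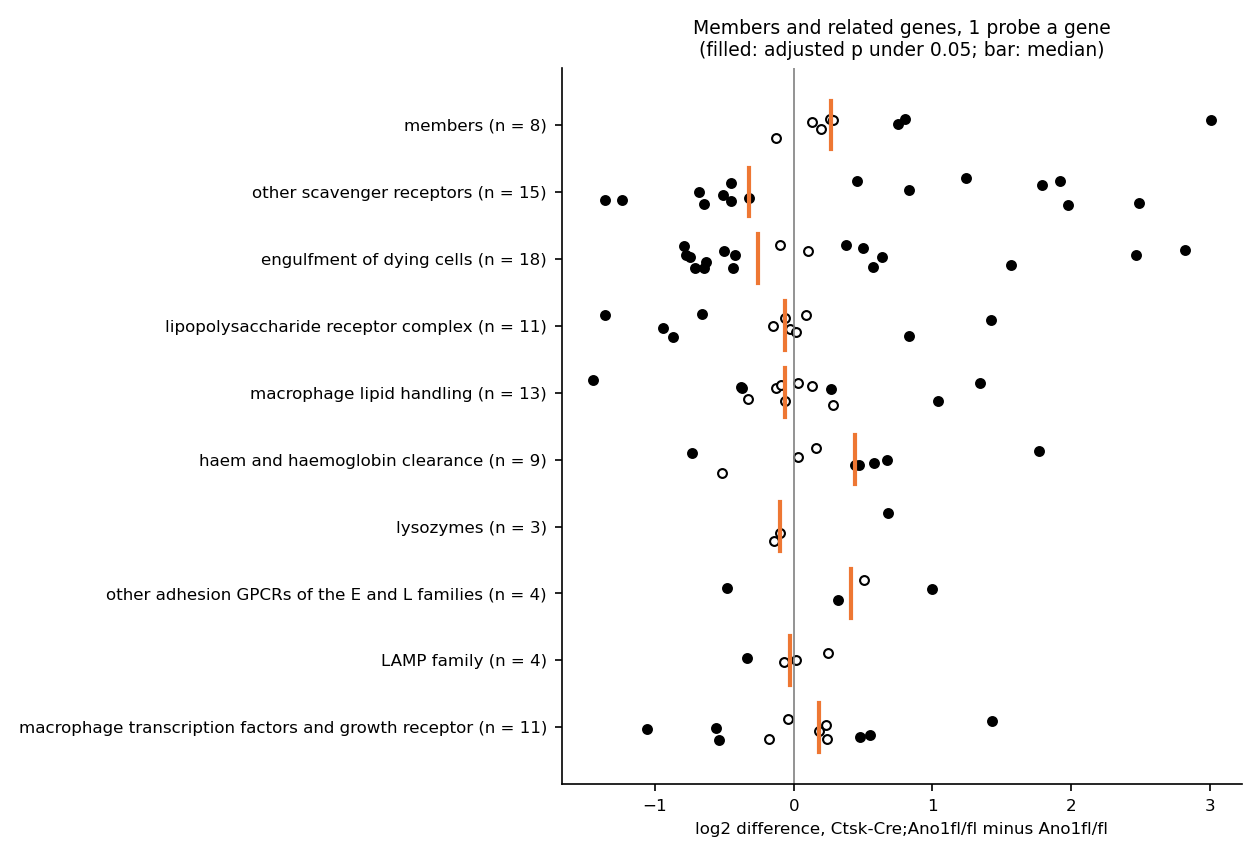
Log2 difference, Ctsk-Cre;Ano1fl/fl minus Ano1fl/fl (x axis), of the 8 tested macrophage genes (top row, labelled members) and of 9 lists of related genes, 1 point per gene by its brightest probe; filled points passed a limma adjusted p of 0.05 and bars give medians. Scavenger receptors and engulfment genes spread to both sides of 0, with medians of -0.32 and -0.26, against 0.27 for the macrophage genes.

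Promoter sequences are printed for Marco, with the largest difference, and Cd68, because matches to motifs of macrophage factors were found in these 2 of the 6 genes with an entry in the RefSeq promoter table (GRCm38.p6, 250 bases before to 50 after the start). Capitals mark the matches, and both sequences run 5′ to 3′ on the minus strand of the genome, at chr1:120504975-120505274 for Marco and chr11:69666121-69666420 for Cd68.
Marco: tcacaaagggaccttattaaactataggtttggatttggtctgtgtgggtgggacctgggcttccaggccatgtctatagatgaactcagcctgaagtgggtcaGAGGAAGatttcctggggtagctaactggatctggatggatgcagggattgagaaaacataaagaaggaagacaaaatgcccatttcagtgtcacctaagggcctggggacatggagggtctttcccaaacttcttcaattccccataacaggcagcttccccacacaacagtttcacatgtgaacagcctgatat
Cd68: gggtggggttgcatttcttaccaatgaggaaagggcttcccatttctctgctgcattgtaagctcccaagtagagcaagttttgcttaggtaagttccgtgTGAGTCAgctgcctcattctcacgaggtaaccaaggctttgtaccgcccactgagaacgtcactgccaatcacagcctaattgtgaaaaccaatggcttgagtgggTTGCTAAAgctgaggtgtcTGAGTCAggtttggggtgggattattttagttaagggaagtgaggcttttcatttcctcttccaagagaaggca
Motifs were searched on both strands with overlaps allowed. GAGGAAG, a core of PU.1 sites, occurred once in Marco, 146 to 140 bases before the start, and in 13.6% of all 32851 promoters of the table. TGANTCA, the AP-1 motif, occurred in Cd68 at 149 to 143 and at 24 to 18 bases before the start, and in 7.81% of all promoters. TTGCNNAA, for C/EBP factors, occurred in Cd68 at 43 to 36 bases before the start, and in 10.8% of all promoters. CACGTG, the E-box of the MITF and TFE factors, is held by 7.15% of all promoters and by 0 of the 6. Cd36, Cd163, Lyz2 and Mertk held none of these letters in this window.

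The genes with the pattern most like Adgre1 and Cd68 were taken by Pearson r of log2 signal over the 6 arrays among 13775 genes, as a description over arrays that fall into 2 groups. For Adgre1 these were Eva1c, Wars2 and Unc5b, each at 0.999, with log2 differences of 2.46, 0.88 and 3.70. For Cd68 they were Actn1 (0.999), Ube2f (0.995) and Tmem181a (0.995), with log2 differences of 0.44, 0.18 and 0.19.

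Markers of other cells moved on the same arrays. All 12 osteoclast markers were tested, and each was well above background on all 6 arrays except Calcr, which was so on 5. By the labels, which the Ano1 probe could not check, 11 of the 12 were higher in Ctsk-Cre;Ano1fl/fl cells and 1 lower, the latter not called when any array but Ctsk-Cre;Ano1fl/fl replicate 2 was left out. Their summed signal was 175000–189000 in Ano1fl/fl and 555000–626000 in Ctsk-Cre;Ano1fl/fl cells, while that of the 8 tested macrophage genes was 393000–409000 and 578000–659000. The macrophage sum includes Marco, whose processed signals before normalization were 17200–23800 and 125000–155000, and only 3 of these 8 genes were called. Of 6 monocyte markers 0 were higher and 5 lower, Ccr2 and Cx3cr1 among them, with sums of 307000–326000 and 94700–136000. Of 12 neutrophil markers 2 were higher and 7 lower, with sums of 356000–375000 and 258000–305000, and the count higher was 1 without Ano1fl/fl replicate 1 or 2 or Ctsk-Cre;Ano1fl/fl replicate 1 or 3. Of 13 tested stromal and osteoblast markers 11 were higher and 1 lower, the latter not called when any 1 array was left out, and 2 of the 11, Lum and Pdgfra, had 0 Ano1fl/fl arrays well above background and entered the test through the other group alone. These markers had sums of 22100–24200 and 83800–123000. All 5 B cell markers were higher, with sums of 6170–7700 and 22800–43600. Fewer markers of dendritic cells (3 higher and 1 lower of 6 tested), endothelial cells (1 and 2 of 5), T and NK cells (1 and 2 of 5), erythroid cells (0 and 2 of 2) and mast cells (0 and 2 of 3) were called. The call of the dendritic marker that was lower was lost without Ano1fl/fl replicate 1 or 3 or Ctsk-Cre;Ano1fl/fl replicate 1 or 2, and 4 T and NK markers were lower without Ctsk-Cre;Ano1fl/fl replicate 3. Xcr1, Tek, Klf1, Alas2, Mcpt4 and Cma1 were among the markers that stayed near background on all 6 arrays. The part of these cells in the differences of Marco, Adgre1, Msr1 and Cd68 was not tested.

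**Figure D5:**
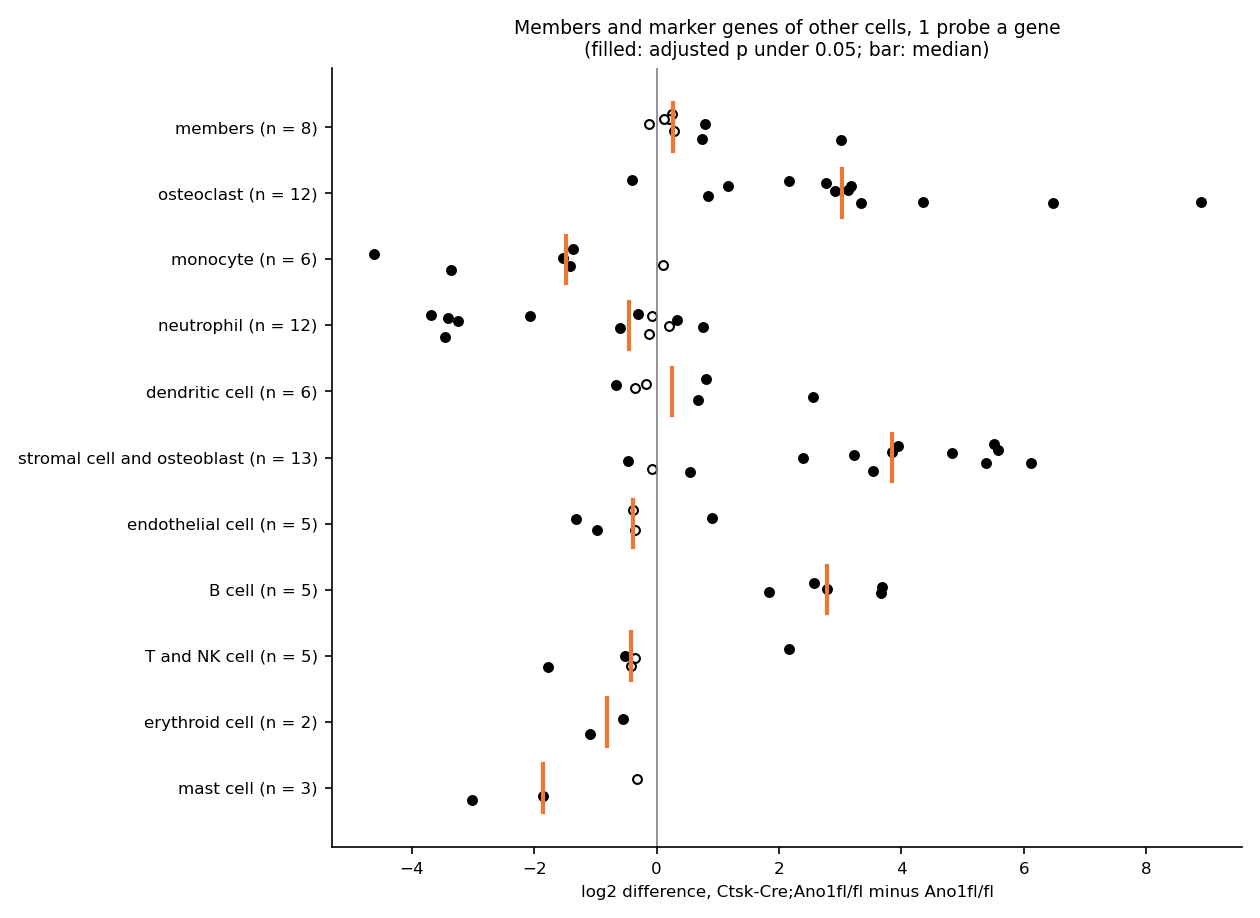
Log2 difference, Ctsk-Cre;Ano1fl/fl minus Ano1fl/fl (x axis), of the 8 tested macrophage genes (top row, labelled members) and of markers of 10 cell types, 1 point per gene by its brightest probe; filled points passed a limma adjusted p of 0.05 and bars give medians. Medians were 3.02 for osteoclast, 3.85 for stromal and 2.79 for B cell markers, -1.48 for monocyte markers and 0.27 for the macrophage genes.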

How the data were processed

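RNA of 3 Ano1fl/fl and 3 Ctsk-Cre;Ano1fl/fl osteoclast cultures was measured on 1-colour arrays. The authors deposited scanner intensities from Agilent Feature Extraction 10.7.1.1, per the submitters' processing notes, among them a background-corrected processed signal that is not normalized between arrays. The deposited series matrix holds the median spot intensity, unchanged. Log2 values of the processed signals were quantile normalized with limma 3.58.1 in R 4.3.3, and 14 probes with missing values were left out with control and outlier spots. Where every array of 1 group or both had a probe well above background, it was tested with lmFit and eBayes, with Benjamini-Hochberg adjustment over all 31848 probes, and were called at an adjusted p under 0.05. Replicates were taken as separate mice, since the methods describe 3 mice of each group, while the labels give replicate numbers only. All 14 probes with a RefSeq accession matched the expected symbol in the RefSeq table. All 9 genes were named with all their probes, with fixed partners and, per related list, the largest rise and fall among called genes whose groups do not overlap. The values of 2 genes of these lists are not reported here. The members and lists were chosen with earlier results of these data known. The fit was tested on simulated data. Alternatives changed 1 choice at a time: scaling, background correction, series matrix, filters, 1 value per gene, test, threshold, replicate block and leaving out each array, with the second row of the slide alone added after seeing the data. Python 3.11.15, pandas 2.3.3 and matplotlib 3.10.9 were used.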

Additional observations from a re-analysis of the deposited data

How the results depend on the processing

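The directions of the called macrophage probes held under every setting run. Against 16690 probe calls, 10830 calls were made with 1 brightest probe per gene, 10875 with the mean of a gene's probes, 10885 at an adjusted p under 0.01, 5422 with a 2-fold minimum, and 8220 in the second row of the slide alone, which holds 1 Ano1fl/fl array against 3 and assumes that the lone array varies like the others. In the same order of settings, the 7 called macrophage probes became 3, 4, 4, 2 and 4, and with limma's trend and robust options there were 11, since Mertk, Cd36 and the brightest probes of Cd68 and Lyz2 also passed. The 60 calls in related lists became 18 with a 2-fold minimum and 26 in the second row. Leaving out 1 array gave 13785–14806 probe calls, 5–7 macrophage probes, 52–56 related genes and 52–55 markers, against 57 markers called with all arrays. With the mean of a gene's probes, Scarb1 turned from -0.32 to 0.02 (limma adjusted p = 0.91) and Tlr4 from 0.09 to -0.70 (limma adjusted p = 0.00725). Same-numbered samples did not deviate together (correlations of -0.02, -0.08 and -0.09), and no label ties a number to a litter, so litters shared across the groups were not tested. The replicate block gave 14150 probe calls and 6 macrophage probes, without the upstream Msr1 probe. The methods' t-test, unpaired and two-sided, called 17683 probes and 10 macrophage probes unadjusted, and 14549 and 8 after Benjamini-Hochberg adjustment. Small differences such as those of Mertk, Cd36 and Cd68 are near the precision of 3 arrays per group.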
